A study of Oryza sativa with 36 samples.

Results

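Rice axillary meristem tissue labelled AM5 was compared with tissue labelled AM1, the ends of a series that runs from AM1 to AM5. The comparison used 12 of the 35 libraries with counts, namely every library whose name holds AM5 or AM1. They comprised 3 NIL-MP3 AM5, 3 NIL-MP3 AM1, 3 Takanari AM5 and 3 Takanari AM1 libraries. NIL-MP3 and Takanari are the cultivars of the study. Takanari is an indica rice, and a near-isogenic line (NIL) carries a chromosome segment from another line in an otherwise shared background. All plants grew under short days in climate chambers, kept at 27 °C for 10 h in the light and at 25 °C for 14 h in the dark. The labels do not say what the AM numbers stand for, nor whether plants were pooled, and all libraries, SAM included, are labelled as axillary meristem tissue.

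An axillary meristem forms in the axil of a leaf and builds a bud with leaf primordia of its own. In rice such buds either stay dormant or grow out into tillers, the side shoots that later carry panicles. Outgrowth is known to depend on plant hormones, among them strigolactone, auxin and cytokinin, and on transcription factors that repress the bud. The shoot apical meristem is the corresponding growing point at the tip of a shoot.

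Each value was a count of molecules at a locus. Libraries followed CEL-Seq2, in which reverse transcription from the poly(A) tail adds a molecular identifier, so PCR copies of 1 molecule are counted once. Totals ran from 77362 to 154774 in the 6 AM5 libraries and from 107674 to 158064 in the 6 AM1 libraries. Of 21124 loci with a count in these libraries, 3376 were abundant enough to test. Loci are given by their identifiers, since 0 of 55801 identifiers occur in the gene table used here. No gene name, pathway list or tissue marker could therefore be assigned, and the label axillary meristem was not checked against markers.

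AM5 differed from AM1 at about 1 locus in 5 of those tested. In edgeR's quasi-likelihood test, with each AM5 library set against the AM1 library of its own set of library numbers, 702 of 3376 loci passed an adjusted p of 0.05 (20.8%). Of these, 360 were higher in AM5 (10.7% of tested loci) and 342 were lower (10.1%). The higher loci differed by a median of 2.19-fold, with quartiles of 1.88-fold and 2.76-fold. The lower loci differed by a median of 2.13-fold, with quartiles of 1.80-fold and 2.97-fold. The median over all tested loci was -0.02 on the log2 scale, a centre that the scaling of the libraries sets near 0, so differences are relative to the typical locus.

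Large differences were a minority of these calls. A fitted difference of at least 4-fold was found at 42 of the higher and 37 of the lower loci, and one of at least 2-fold at 221 and 203. No called locus was at 0 in all 6 libraries of AM5 or of AM1 (0 loci for either). At 1 of them, LOC_Os01g03330 on chromosome 1, AM1 held 2 counts over its 6 libraries, against 66 in AM5. That AM1 total is not above the 3 counts that a total of 0 allows, so the AM1 level is poorly fixed. That locus was named after its values were seen, and its fitted difference was the largest. In a bulk sample, fewer cells of a type and less RNA per cell cannot be told apart.

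**Figure D1:**
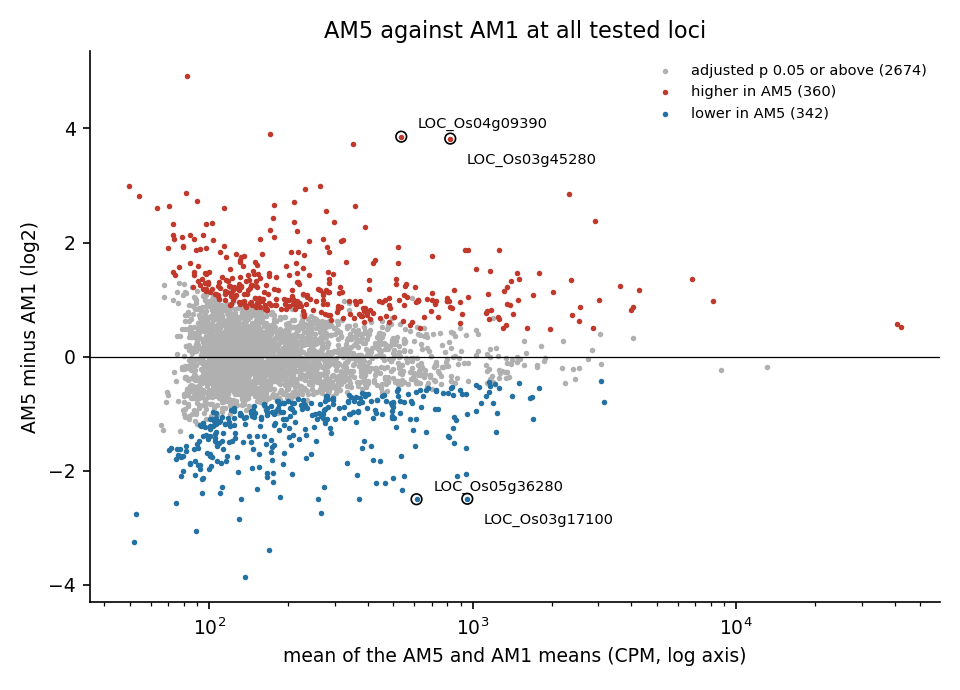
Log2 difference AM5 minus AM1 of each of 3376 tested loci against its mean level in CPM (log axis). Red points are the 360 loci higher in AM5, blue points the 342 lower, grey points did not pass, and rings mark the 4 named loci, which lie far from the line of no change.

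The 702 loci made up a sizeable part of the measured RNA. The 360 higher loci held 22.5% ± 2.47 of a library's counts in AM5 (range 20.3% to 26.7%) and 12.8% ± 1.17 in AM1 (range 11.2% to 14.0%; SD, n = 6 each). The 342 lower loci held 5.41% ± 0.413 in AM5 (range 4.77% to 5.80%) and 11.8% ± 1.49 in AM1 (range 9.06% to 13.2%; SD, n = 6 each). The libraries did not overlap in either share. These shares describe loci chosen in the same libraries and are no separate test.

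LOC_Os03g45280, on chromosome 3, had the lowest p-value of the loci higher in AM5. Its level was 648 CPM at the lowest, 1128 at the median and 3245 at the highest of the 6 AM5 libraries, against 50.5, 78.5 and 204 CPM in AM1. CPM here are counts relative to the TMM-scaled library size over the tested loci. Every AM5 library lay above every AM1 library, and the counts behind these levels were 747 in AM5 and 62 in AM1. The fitted difference was 3.82 ± 0.23 (log2, SE), or 14.1-fold, with an adjusted p of 4.21e-14 in edgeR's quasi-likelihood test. When the sets were left out of the fit, the same test gave an SE of 0.54 and an adjusted p of 0.00081.

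The spread within AM5 at this locus was wide. Takanari AM5 replicate 13 stood highest and Takanari AM5 replicate 7 lowest, a range of levels within 1 cultivar. The difference within a set of library numbers was 2.86 at the smallest, in NIL-MP3 numbers 13 to 18, and 4.44 at the largest (log2, from CPM with a prior count of 2). It was positive in 6 of 6 sets, which the rule that chose the named loci required.

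LOC_Os04g09390, on chromosome 4, was the next. Its level was 326 CPM at the lowest, 928 at the median and 2049 at the highest in AM5, against 19.2, 44.6 and 197 CPM in AM1. The groups did not overlap, but the highest AM1 value, in NIL-MP3 AM1 replicate 17, was more than 2 times any other AM1 value. The counts were 452 in AM5 and 36 in AM1, so AM1 levels rest on 2 to 16 molecules a library. The fitted difference was 3.86 ± 0.31 (log2, SE), or 14.5-fold (edgeR, adjusted p = 2.48e-10). As the choice of named loci required, it was positive in 6 of 6 sets. When the sets were left out of the fit, the SE was 0.64 (edgeR, adjusted p = 0.0016). The fitted difference was 4.496 (log2) without NIL-MP3 AM5 replicate 13 and 4.495 without NIL-MP3 AM1 replicate 17, the libraries of 1 set.

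LOC_Os03g17100, on chromosome 3, led the loci lower in AM5. Its level was 56.2 CPM at the lowest, 349 at the median and 459 at the highest in AM5, against 1106, 1478 and 2296 CPM in AM1. The lowest AM5 value, in NIL-MP3 AM5 replicate 13, stood well below the others and rested on 6 molecules. The difference was -2.49 ± 0.22 (log2, SE), a 5.62-fold lower level in AM5 (edgeR, adjusted p = 3.92e-10).

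LOC_Os05g36280, on chromosome 5, had a similar pattern. Its level was 65.6 CPM at the lowest, 205 at the median and 263 at the highest in AM5, against 418, 1057 and 1479 CPM in AM1. The lowest library of each group came from NIL-MP3 numbers 13 to 18. The difference was -2.50 ± 0.22 (log2, SE), 5.65-fold lower in AM5 (edgeR, adjusted p = 3.92e-10). Both named lower loci were lower in AM5 in 6 of 6 sets, which their choice required.

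**Figure D2:**
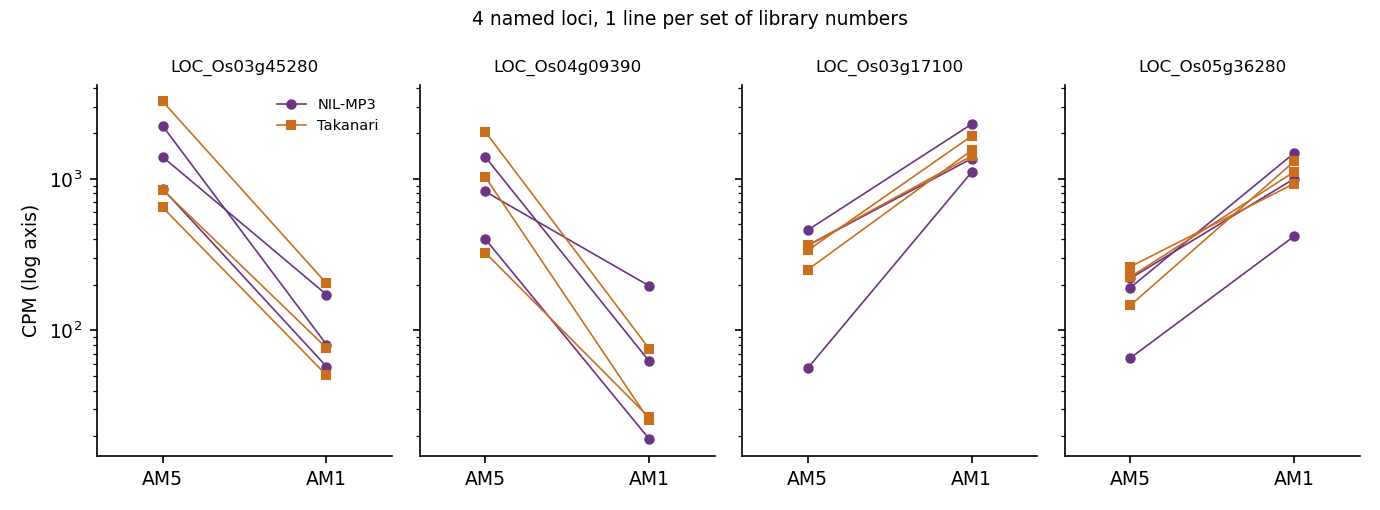
Level of the 4 named loci in CPM (log axis) in the 6 AM5 and 6 AM1 libraries, with a line joining the libraries of 1 set of library numbers within NIL-MP3 (circles) or Takanari (squares). All 6 lines run the same way at each locus, which the choice of these loci required. AM5 and AM1 values do not overlap, which choosing the lowest p-values favours.

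The 4 loci were read in the tissues that the contrast did not use, with CPM scaled over all 35 libraries. LOC_Os03g45280 averaged 170.3 ± 97.0 CPM in AM2, 188 ± 122 in AM3 and 421 ± 167 in AM4 (SD, n = 6 each), and 113 ± 70.9 in SAM (n = 5). On that scale its AM5 mean was 1608 ± 1060 CPM. LOC_Os04g09390 averaged 98.7 ± 50.6 CPM in AM2, 182 ± 182 in AM3, 417 ± 290 in AM4 and 76.4 ± 55.7 in SAM. The AM1 means on that scale were 109 ± 65.8 and 70.0 ± 70.8 CPM, so SAM lay within the AM1 spread at both loci.

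Both named lower loci were already reduced in AM3. LOC_Os03g17100 averaged 1536 ± 475 CPM in AM2, 819 ± 356 in AM3, 518 ± 180 in AM4 and 1329 ± 382 in SAM. LOC_Os05g36280 averaged 997 ± 360 CPM in AM2, 619 ± 250 in AM3, 320.5 ± 175 in AM4 and 888 ± 159 in SAM. At both loci the largest drop in mean CPM was between AM2 and AM3, and the neighbouring tissues overlapped in range. As a fold, the drop at LOC_Os05g36280 was larger between AM3 and AM4.

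The sets of library numbers gave the contrast with unequal size. Over the 360 higher loci, the median log2 difference within a set ran from 0.83 in NIL-MP3 numbers 7 to 12 to 1.28 in NIL-MP3 numbers 1 to 6. Over the 342 lower loci it ran from -0.80 in NIL-MP3 numbers 13 to 18 to -1.26 in Takanari numbers 13 to 18. All 6 sets showed the difference at 255 of the higher and 249 of the lower loci, and 5 of 6 sets at 102 and 89. Over all 3376 tested loci, 6 of 6 sets had the same sign at 723 and 5 of 6 at 939. The call was made in these same sets and favours such loci. AM5 and AM1 values did not overlap at 118 of the 360 higher and 114 of the 342 lower loci, where 7.26% of all tested loci had no overlap.

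A reading in libraries left out of the call gave the same direction for most loci. When 1 set was left out, edgeR called 557 to 719 loci from the other 5, and those also in the table of 3376 were read in the set left out. Of the loci higher in AM5, 79.4% to 96.3% were higher in the left-out set, and of the lower loci 79.9% to 94.6% were lower. Over all tested loci, 47.5% to 52.3% were higher in such a set. The lowest shares came from NIL-MP3 numbers 7 to 12 for the higher loci and from NIL-MP3 numbers 13 to 18 for the lower ones.

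NIL-MP3 AM1 replicate 17 lay nearer to AM5 than the other AM1 libraries in its mean over the called loci. Its mean over the 360 higher loci was 7.73 log2 CPM, against 7.33 to 7.51 in the other 5, and over the 342 lower loci it was 8.09 against 8.44 to 8.66. Both values lay inside the range of the AM2 libraries, 7.46 to 7.96 and 7.99 to 8.38. In the summed called loci of the chromosome 12 and chromosome 4 stretches described below, this library was instead the lowest AM1 library (3312 and 2410 CPM). Without that library edgeR called 725 loci, 371 of them higher in AM5. The number of tested loci then rose from 3376 to 3995, and 610 of the 725 were among the loci called in the reported test. Leaving it out also leaves NIL-MP3 AM5 replicate 13 without a partner, so the fit loses the whole set. Without NIL-MP3 AM5 replicate 13 instead, edgeR called 733 of 3935 tested loci. These counts therefore do not show the effect of NIL-MP3 AM1 replicate 17 alone.

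The called loci as a whole passed through intermediate levels in AM2, AM3 and AM4, none of whose libraries entered the contrast. The mean over the 360 higher loci in log2 CPM was 7.48 ± 0.13 in AM1, then 7.66 ± 0.18 in AM2, 7.97 ± 0.19 in AM3 and 8.27 ± 0.18 in AM4, and 8.67 ± 0.16 in AM5 (n = 6 each, SD). Over the 342 lower loci it was 8.48 ± 0.21, 8.25 ± 0.16, 7.95 ± 0.17, 7.69 ± 0.18 and 7.37 ± 0.13 log2 CPM in the same order. Each step amounted to 0.18 to 0.40 in the higher loci and 0.23 to 0.32 in the lower ones, so no single step held most of the difference. The loci were chosen for their AM5 and AM1 levels, which can enlarge the first and the last step.

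**Figure D3:**
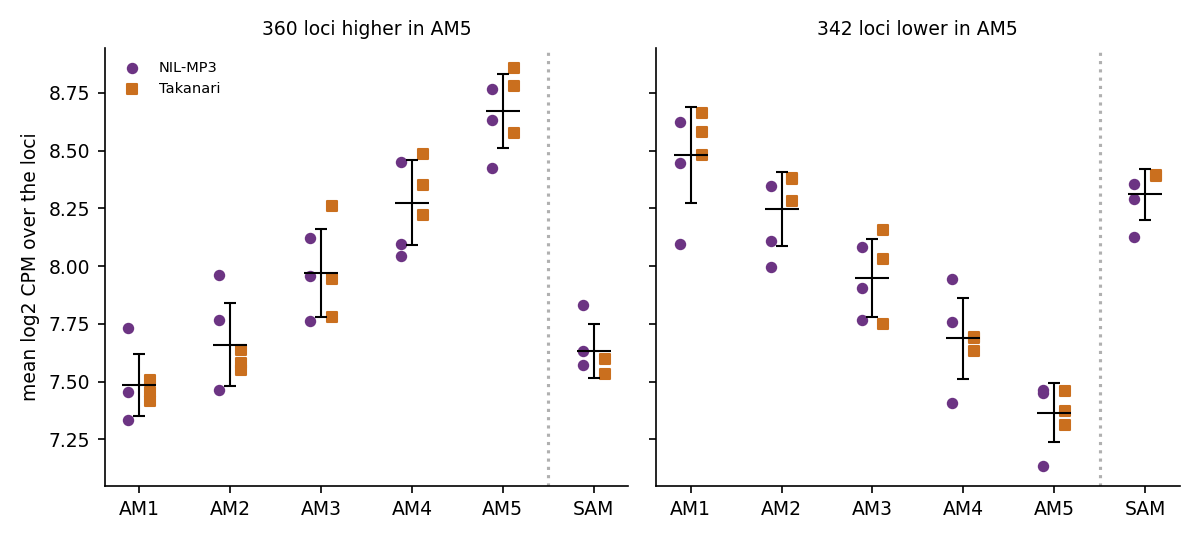
Mean log2 CPM over the 360 loci higher in AM5 (left panel) and the 342 lower in AM5 (right panel), 1 point per library, along AM1 to AM5 with SAM set apart. Bars are the mean ± SD of the tissue. The means move step by step from AM1 to AM5, and the SAM mean lies between those of AM1 and AM2.

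Locus by locus the order was less regular. The AM2, AM3 and AM4 means all lay between those of AM1 and AM5 at 208 of 360 higher loci (57.8%) and 189 of 342 lower loci (55.3%). All 5 means were strictly ordered at 152 (42.2%) and 115 (33.6%). The midpoint between AM1 and AM5 was passed in AM2 at 11.4%, in AM3 at 43.9% and in AM4 at 77.2% of the higher loci, and at 15.5%, 48.2% and 77.8% of the lower loci. In 46 higher and 65 lower loci a middle tissue went beyond AM5. The same shares over all tested loci are not given here. Choosing loci for their AM5 and AM1 levels favours middle means that lie between the ends.

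SAM lay towards the AM1 end at these loci. The SAM mean was 7.63 ± 0.12 log2 CPM over the higher loci and 8.31 ± 0.11 over the lower ones (SD, n = 5). It was nearer to AM1 than to AM5 at 318 of 360 higher loci (88.3%) and 300 of 342 lower loci (87.7%), and went beyond AM1 at 109 and 91. These are descriptions of loci chosen for the contrast, with no test and no share over all tested loci beside them.

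All 702 called loci had the same sign of difference in both cultivars, which the joint call favours. In a fit with 1 difference per cultivar, edgeR called 224 loci in NIL-MP3 (6.64%), 134 higher and 90 lower in AM5 (3.97% and 2.67%), and 396 in Takanari (11.7%), 210 higher and 186 lower (6.22% and 5.51%). Loci called in 1 cultivar were then read in the libraries of the other. The filter, scaling and estimate of spread were shared by both cultivars, so this reading was not wholly apart from the call. Of the 210 loci higher in AM5 in Takanari, 207 had a positive difference in NIL-MP3, with a median of 1.06 there against 1.48 in Takanari, where they were chosen (log2). Of the 186 lower loci, 182 had a negative difference in NIL-MP3, with medians of -1.06 and -1.64.

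The reverse reading was alike. Of the 134 loci higher in AM5 in NIL-MP3, 131 were also positive in Takanari, with medians of 1.47 in NIL-MP3 and 1.34 in Takanari. Of the 90 lower loci, 89 were negative in Takanari, with medians of -1.84 and -1.74. Over all tested loci 72.4% had the same sign in both cultivars.

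No locus passed the test of the difference between the cultivars. The NIL-MP3 minus Takanari difference of the contrast was called at 0 of 3376 loci (0%) by edgeR, and at 0 by DESeq2 and by limma voom. An unadjusted p under 0.05 was reached by 123 loci with edgeR, 31 with DESeq2 and 121 with limma voom, where chance alone gives 168.8. With edgeR the lowest adjusted p was 0.994. This does not show that the cultivars respond alike. At LOC_Os04g09390 the differences were 3.33 ± 0.40 in NIL-MP3 and 4.58 ± 0.45 in Takanari (log2, SE), and that between them was -1.25 ± 0.67 (edgeR, unadjusted p = 0.0710, adjusted p = 0.994).

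**Figure D4:**
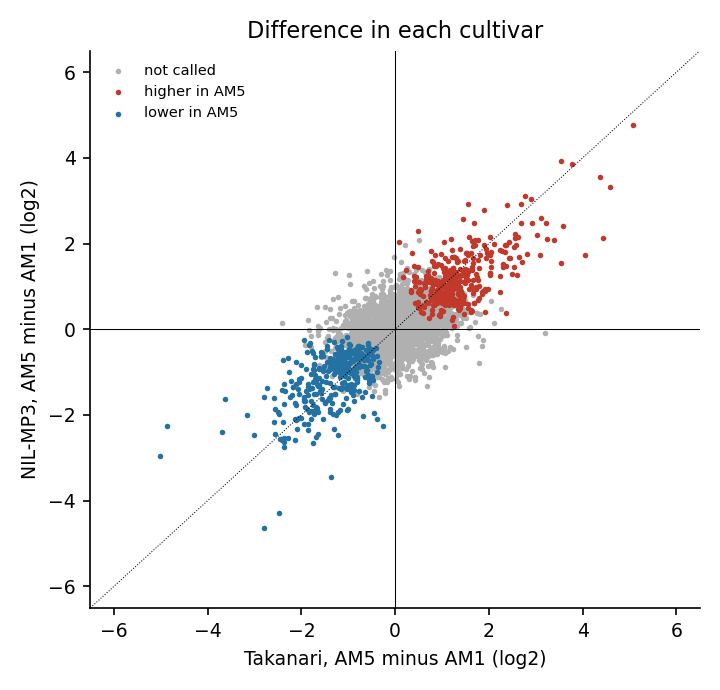
Log2 difference AM5 minus AM1 in NIL-MP3 (vertical) against Takanari (horizontal) at the 3376 tested loci, coloured by the call over both cultivars, with a dotted line of equality. Called loci lie in the quadrants of equal sign, 360 higher and 342 lower in AM5, a placement that the joint call itself favours.

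The counts within a cultivar depended on single sets of that cultivar. A library left out leaves the other library of its set without a partner, so the blocked fit loses that set. The NIL-MP3 count of 224 became 132, 142 and 170 without NIL-MP3 AM5 replicates 1, 7 and 13. It became 137, 140 and 174 without NIL-MP3 AM1 replicates 5, 11 and 17. The Takanari count of 396 became 159, 227 and 163 without Takanari AM5 replicates 1, 7 and 13, and 156, 222 and 165 without Takanari AM1 replicates 5, 11 and 17. With a library of the other cultivar left out, the NIL-MP3 count was 197 to 224 and the Takanari count 417 to 466. Whether the cultivars differ in the number of loci was not tested.

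Loci higher in AM5 were unevenly spread over the chromosomes. On chromosome 12, 43 of 172 tested loci were higher in AM5 (25%) and 12 lower, against 317 of 3204 higher on the other chromosomes (9.89%). On those the share higher ran from 7.5% on chromosome 5 to 14.2% on chromosome 9, and the share lower from 5.36% on chromosome 11 to 12.3% on chromosome 1. Chromosome 12 was thus set apart by its higher loci alone. It was singled out after its values were seen, so no test is given.

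**Figure D5:**
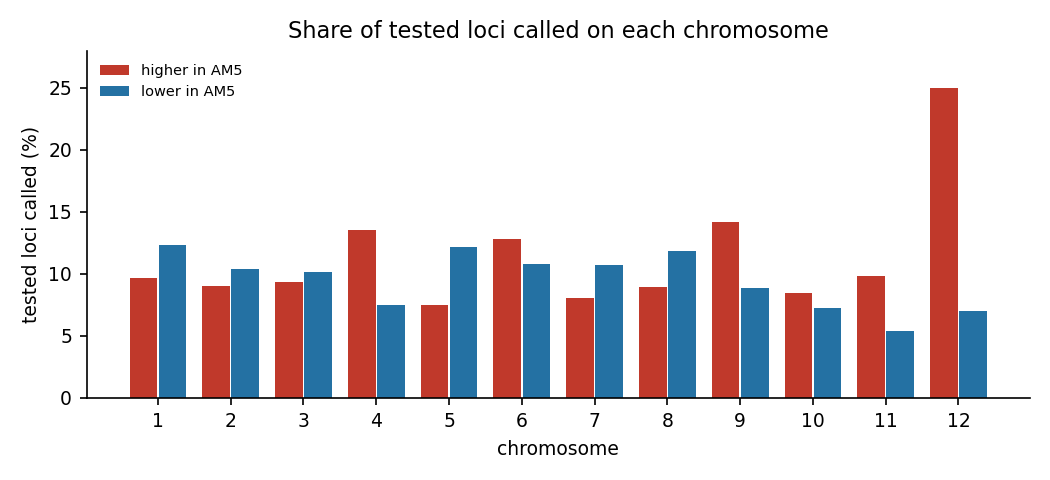
Share of tested loci on each chromosome that were higher (red) or lower (blue) in AM5, in percent. Chromosome 12 reaches 25% for loci higher in AM5, where the others lie between 7.5% and 14.2%.

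Much of the excess came from 1 stretch of neighbours. From LOC_Os12g33922 to LOC_Os12g34128, all 17 tested loci of 37 in the table were higher in AM5, by 0.85 to 1.84 (log2) with a median of 1.36. Outside it, 26 of 155 tested loci on chromosome 12 were higher (16.8%). A second stretch, from LOC_Os04g16712 to LOC_Os04g16886 on chromosome 4, held 12 higher loci of 22 tested, with differences of 0.74 to 1.56. Both were found by joining called loci whose identifier numbers were at most 60 apart, after the calls were known, and no other stretch held more than 5.

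The summed level of all tested loci of each stretch was read in all tissues. The stretches were chosen for their higher levels in AM5, so their AM5 and AM1 values are a description and no separate evidence. Summed over the 17 loci of chromosome 12, the level averaged 5863 ± 1380 CPM in AM1, 6760.2 ± 623 CPM in AM2, 9332 ± 1034 CPM in AM3, 11884 ± 1530 CPM in AM4 and 14176 ± 2522 CPM in AM5 (n = 6 each, SD), and 6442 ± 956 in SAM (n = 5). The ratio of AM5 to AM1 within a set was 1.94 to 2.89 in the 6 sets. Over the 22 tested loci of chromosome 4 the level averaged 6328 ± 1670.3 CPM in AM1, 7964 ± 1117 CPM in AM2, 10204 ± 1234 CPM in AM3, 10485 ± 1757 CPM in AM4 and 11628 ± 2047 CPM in AM5, and 7317 ± 1704 CPM in SAM, with ratios of 1.58 to 2.57. The 10 of them that did not pass the test had differences of -0.17 to 1.29 (log2).

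Both stretches thus followed the order of the AM numbers in their means. The 29 called loci of both stretches together took 1.52% ± 0.239 of a library's counts in AM5 and 0.757% ± 0.184 in AM1 (SD, n = 6 each). How the counting treated reads that fit several near-identical loci is not given in the sources used here. Whether the counts of a stretch come from these loci or from near-identical sequence elsewhere, organelle genomes included, was not tested. The stretch sums, the share on chromosome 12 and the position of these calls are uncertain to that extent. With these 29 loci removed before scaling, edgeR called 664 loci, 333 of them higher in AM5.

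Neighbouring loci were compared over the whole table, the stretches included. Among 887 pairs of neighbouring tested loci with identifier numbers at most 30 apart, both were higher in AM5 in 47 pairs, both lower in 13 and opposite in 7. Among all 3364 pairs of neighbouring tested loci the counts were 69, 43 and 52, so pairs that were both higher were concentrated among near neighbours. The chromosome 12 stretch alone holds 17 higher loci in a row. No count was made without the stretches, so a tendency outside them is not shown.

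Depth and composition were compared between the ends of the series over 3 measures. With 6 sets, an adjusted p under 0.05 would need at least 2 of the measures to reach the smallest p, so these tests do not show that the ends were alike. The total count averaged 110749.5 ± 29303 in AM5 and 130341 ± 23687 in AM1 (SD, n = 6 each), and AM5 was the lower in 4 of 6 sets (exact sign-flip permutation test, two-sided, adjusted p = 0.281 over 3 measures). After thinning to 77362 molecules, 12624 ± 211 loci were detected in AM5 and 12294 ± 159 in AM1, more in AM5 in 6 of 6 sets (exact permutation p = 0.0313, the smallest that 6 sets allow, adjusted p = 0.0938). The 100 most abundant loci of a library held 22.6% ± 1.93 of its counts in AM5 and 19.5% ± 1.14 in AM1 (exact permutation adjusted p = 0.0938). In counts thinned to the same total, edgeR called 472 of 1952 loci, 264 of them higher in AM5.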

How the data were processed

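The deposited values were counts of molecules (UMIs) per locus, as the name of the count table says, whole numbers with no normalization by the authors visible in them, for 55801 loci in 35 of 36 libraries. The labels say that Takanari SAM library 18 was left out because its reads did not align. Libraries were made from 100 pg of RNA with 11 to 15 PCR cycles, per the labels' protocols. Bowtie2 and Subread 2.1 are named in the submitters' processing notes with no role. No source used here gives the genome build, annotation or strand setting of the counts. Chromosomes were taken from the identifiers.

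AM5 and AM1 libraries were fitted with edgeR 4.0.16 (R 4.3.3), using filterByExpr over the 4 groups (minimum count 10), TMM scaling, robust quasi-likelihood F tests, a block of 6 levels (cultivar by set of library numbers 1 to 6, 7 to 12 and 13 to 18) and Benjamini-Hochberg adjustment at 0.05. Each SE equals the absolute log2 difference over the root of F. Between 68.4% and 71.2% of a library's counts lay in tested loci, and TMM factors were 0.899 to 1.04. Library levels use log2 CPM with a prior count of 2. DESeq2 1.42.0 and limma 3.58.1 (voom) were alternatives.

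Named loci are the first 2 by p-value in each direction among called loci with the same sign in 6 of 6 sets, because no table pairs identifiers with names. The gene lists and markers that were planned could not be used for that reason. The comparison and the rules were chosen with earlier results of these data known. The labels do not say whether libraries are separate plants. The p-values therefore measure only the spread among these samples, possibly a technical one. No 2 of the 12 libraries held identical counts (0 pairs). A count of 0, in a library or as a total over libraries, allows up to 3 counts, and such limits cover counting error only.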

Additional observations from a re-analysis of the deposited data

Results flagged for a closer look

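Of 22 sets of 6 values examined (library measures, levels of the called loci, the 2 stretches and the named loci, each in AM5 and in AM1), 1 held a library far from the others, where chance flags about 1 in 20. In LOC_Os04g09390, NIL-MP3 AM1 replicate 17 had 197 CPM, against 19.2 to 75.8 CPM in the other AM1 libraries. Its gap to the nearest of them was 0.681 of the whole range, past Dixon's 95% critical value for 6 values. The same library lay towards AM5 in its mean level over the called loci, though not far enough to be flagged.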

How the results depend on the processing

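The alternative that removed the loci of both stretches was chosen after seeing the data. The 702 calls of the contrast were 443 with a minimum count of 20, 1177 with all 35 libraries fitted and 441 without both AM5 libraries numbered 1. Of these, 417, 695 and 387 were among the 702. The first tested 1268 loci, the second 6943 and the third 4151. The count was 473 with DESeq2, all among the 702, and 565 to 733 when each library was left out. The fits with 1 library left out tested 3928 to 4013 loci, and 516 to 611 of their calls were among the 702. Each of them loses a whole set, so the 2 libraries of a set give no separate checks. With no filter 770 loci passed and 44.2% of them were higher in AM5, against 51.3% in the reported test. The 224 calls in NIL-MP3 were 121 with DESeq2, 368 with all libraries, 85 without both AM5 libraries numbered 1 and 132 to 224 with 1 library left out. The 396 calls in Takanari were 180, 661, 173 and 156 to 466 in the same order. The difference between the cultivars called 0 loci under each setting. With no replicate block the counts were 660, 169 and 292. The 4 named loci then had SEs of 0.30 to 0.64, against 0.22 to 0.31 with the block. Their adjusted p without it was 3.9e-06 to 0.0016 (edgeR), so their precision rests in part on the block. The deviations of AM5 and AM1 libraries of a set from their group means correlated by 0.0445 to 0.271, over 0.1 in 1 of 6 sets, and in 5 of 6 sets the AM5 library correlated best with the AM1 library of its own set, a hint from the data. At an adjusted p of 0.01 for the call, SAM was nearer to AM1 at 93.1% of the higher and 96.3% of the lower loci, and the 3 middle means lay between the ends at 61.6% of the lower loci. The AM5 minus AM1 difference in log2 total count was -0.404 to -0.142 with 1 set left out, that in loci detected 253 to 385, and that in the share of the 100 most abundant loci 2.48 to 3.85 percentage points. The 4 named loci kept their direction and stayed past the threshold in 92 of 92 values under these settings, most of them from leaving out 1 library, though LOC_Os04g09390 moved to differences of 4.496 and 4.495 without the AM5 or the AM1 library of NIL-MP3 numbers 13 to 18. The cause of these changes was not tested. At a minimum count of 10, 3376 of 21124 loci with a count were tested, and the others were not analysed at this depth.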

Other observations

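Loci whose identifier does not end in 0 were higher in AM5 more often than the rest. Of 282 such tested loci, 71 were higher in AM5 (25.2%) and 16 lower (5.67%), against 289 higher (9.34%) and 326 lower (10.5%) of the 3094 whose identifier ends in 0. The stretches on chromosomes 12 and 4 hold 16 and 11 of the 71. Whether counts at these loci come from near-identical sequence elsewhere was not tested. The pattern was noticed in these data, has no test, and no source used here says what the numbering marks.

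Calls were most frequent among the most abundant loci. In 4 groups of 844 tested loci, ordered from the lowest to the highest mean level, 60, 69, 73 and 158 were higher in AM5 and 75, 44, 77 and 146 were lower. The median size of a called difference was 1.56, 1.21, 1.04 and 0.94 on the log2 scale in the same order. The most abundant group began at 262 CPM. Smaller differences can pass the test at loci with more counts, so these counts do not show that abundant loci differ more.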
